A study of Mus musculus with 24 samples.

Results

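The regulators that carry cells through G1 were described here by the chromatin accessibility around 9 genes: the D-type cyclins Ccnd1, Ccnd2 and Ccnd3, their kinases Cdk4 and Cdk6, the kinase inhibitors Cdkn1a, Cdkn1b and Cdkn1c, and the retinoblastoma gene Rb1. A region of the deposited table belonged to a gene when it overlapped the gene body, or when the nearest end of a protein-coding gene lay within 50 kb and was an end of that gene. Of 13910 regions, 18 met this rule: 1 for Ccnd1, 4 for Ccnd2, 4 for Ccnd3, 1 for Cdk4, 3 for Cdk6, 1 for Cdkn1a, 2 for Cdkn1b, 1 for Cdkn1c and 1 for Rb1. All 18 passed the filter on low counts. Within a gene they are numbered by position along the chromosome.

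D-type cyclins bind Cdk4 or Cdk6, and the active kinases phosphorylate the product of Rb1, which then releases E2F factors and lets the genes of S phase be expressed. The proteins of Cdkn1a, Cdkn1b and Cdkn1c bind cyclin and kinase complexes and can hold cells before S phase. In the blood system, long-term stem cells are mostly quiescent and the multipotent progenitors that descend from them divide more often. Cdk6 and Cdkn1c are known for their parts in stem cell exit from, and stay in, quiescence.

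The series measured accessibility by ATAC-seq, in which the Tn5 transposase cuts and tags open chromatin. WT donor marrow carrying CD45.1 was transplanted into young CD45.2 recipients that were either WT or of a line labelled IκB–, whose columns in the deposited table carry the letters KO and whose genetic change is not described further, and donor cells were recovered from femur and tibia 13 to 15 weeks later. In each library 500 to 1500 sorted donor cells were used: LT-HSC (called HSC here), MPP2, MPP3 or MPP4, all lineage-negative, Sca1-positive and high for cKit. MPP4 were Flt3-positive, and the others, Flt3-negative, were separated by CD150 and CD48, with both present on MPP2, CD48 alone on MPP3 and neither on HSC. The cells studied were WT in all groups, so by design the recipient types differ in the host around them and not in donor genotype. Whether they shared sort days or library batches is not stated. The host cells that a transplanted mouse still has were not profiled. The 4 subsets and 2 recipient types gave 8 groups of 3 libraries, with no statement that the libraries of a group came from separate animals, so p-values measure only the spread between these libraries.

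Counts per library summed to between 121599 and 963699, with HSC among the shallowest libraries and MPP3 among the deepest. Replicates 2 and 3 of WT MPP3 differed no more than sampling noise does, so they count as 1 sample, which left 23 replicates and n = 2 in that group. Of the 6 tested regions of HSC markers, 5 were higher in the mean of MPP than in HSC (median log2 fold change 0.22, 0 called by edgeR, 1 at an unadjusted p under 0.05), and the summed level of the list had a median of 291 CPM in HSC against 327 to 347 in the MPP subsets. The Slamf1 region (Slamf1 encodes CD150) averaged 2.98 CPM in MPP3, 12.3 in MPP4, 19.0 in MPP2 and 22.6 in HSC, although the described HSC gate is CD150-negative. The Flt3 region averaged 61.8 CPM in MPP4 and 28.6 to 37.4 in the other subsets, but of the 6 regions of MPP4 markers 3 were higher in MPP4 than in MPP3 (median log2 fold change 0.12) and 5 higher than in HSC (0.72). Of the 2 regions of MPP3 markers 0 were higher in MPP3 than in HSC (median -0.37). Of markers of other blood cells, Cd3e, Cd8a, Ms4a1, Cd79a, Ly6g, S100a8 and Adgre1 had no region in the table, nor had Cd48, Gata1, Mpo, Elane or Il7r.

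Most member regions were not near an end of their gene. Of the 18, 14 lay in the body of their gene, and 6, or 33.3%, lay within 1 kb of an end of it, whereas 54.9% of all placed regions lay that near to some gene end. They were 160 to 525 bp wide, with a median of 291 bp against 345 bp for the table. Of the 4 regions outside a gene body, that of Ccnd1 was the most distant, 31227 bp beyond the gene's end of higher coordinate. The 3 Ccnd2 regions farther along the chromosome, regions 2 to 4, also overlapped the long non-coding RNA gene 9330179D12Rik, and Ccnd3 region 4 was nearer to an end of Bysl than to an end of Ccnd3. RefSeq's promoter table (GRCm38.p6) holds start sites for 5 of the 9 genes, all on the plus strand. Only Cdkn1b region 1, Cdk4 and Ccnd3 region 4 lay over one of them, the last at a start site inside the Ccnd3 gene. It holds none for Ccnd1, Ccnd2, Cdkn1c and Rb1, so regions of these genes were not placed against a start site. The Cdkn1c and Rb1 regions and Ccnd2 regions 2 and 3 lay within 1 kb of the gene's end of higher coordinate and could be promoter regions.

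**Figure D1:**
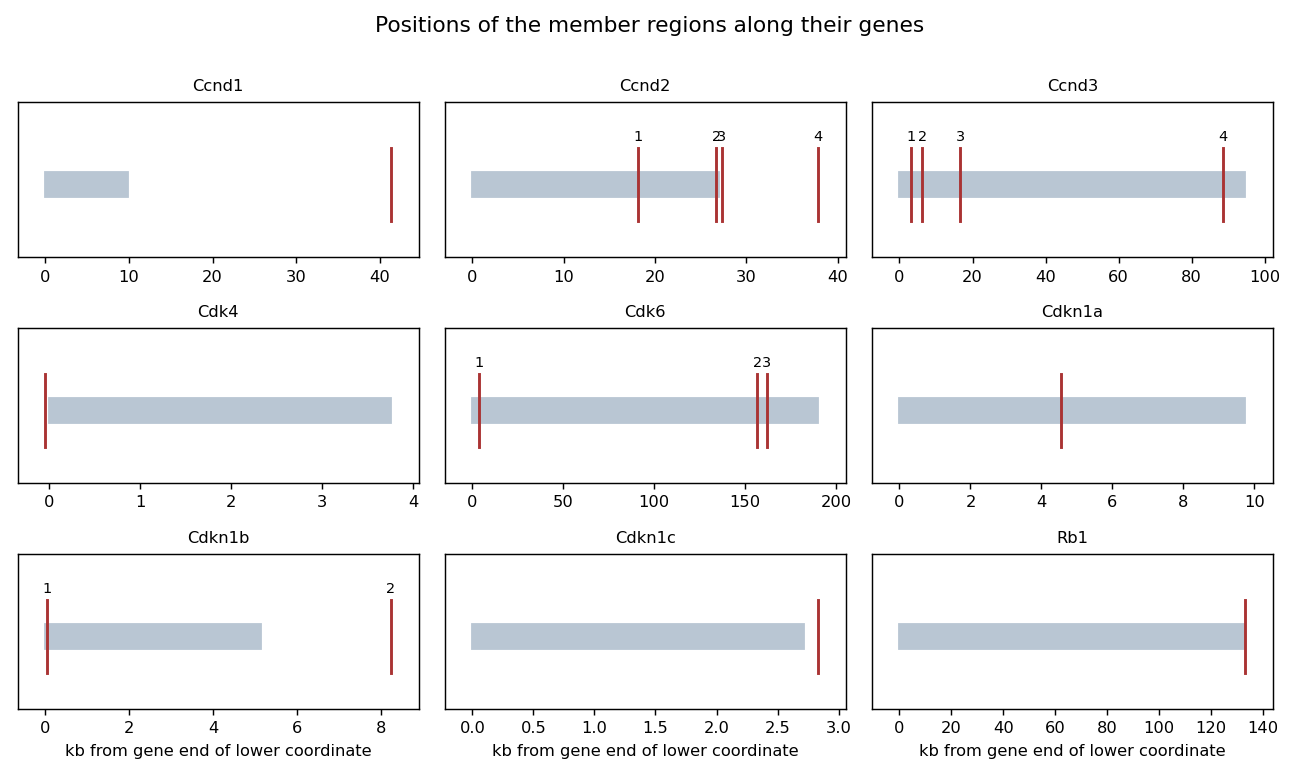
Positions of the 18 member regions (red lines, numbered within a gene) along their 9 genes (grey bars), with the distance in kb from the gene end of lower coordinate on each axis. In Ccnd2, Ccnd3 and Cdk6 the regions are spread along the gene or beyond it, and the Ccnd1 region lies outside the gene body; strand is not drawn.

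The accessible stretches upstream of these 3 start sites are shown because they are the only member regions over a start site of that table and include those of Cdkn1b and Cdk4, the most open of the family. Sequences are from RefSeq (GRCm38.p6), plus strand, and end at the base before the start site; capitals mark matches, on either strand, to GGGCGG (the GC box), CCAAT (bound by NF-Y) or CACGTG (the E-box of Myc and USF factors), and no match overlapped another. The Cdkn1b stretch is chr6:134920174-134920400, the Cdk4 stretch is chr10:127063285-127063534, and the Ccnd3 stretch is chr17:47593386-47593466.
Cdkn1b: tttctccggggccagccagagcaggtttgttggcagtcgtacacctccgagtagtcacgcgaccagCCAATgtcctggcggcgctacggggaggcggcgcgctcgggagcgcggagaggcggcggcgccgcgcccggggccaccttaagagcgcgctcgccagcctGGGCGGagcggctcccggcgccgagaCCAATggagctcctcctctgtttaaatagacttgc
Cdk4: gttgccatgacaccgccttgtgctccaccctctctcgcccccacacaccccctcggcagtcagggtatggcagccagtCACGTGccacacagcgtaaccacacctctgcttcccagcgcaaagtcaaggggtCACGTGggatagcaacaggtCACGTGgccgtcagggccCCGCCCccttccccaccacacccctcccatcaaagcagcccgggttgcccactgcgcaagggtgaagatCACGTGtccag
Ccnd3: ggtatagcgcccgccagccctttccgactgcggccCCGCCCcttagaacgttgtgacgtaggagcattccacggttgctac

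The Cdk4 stretch of 250 bases held CACGTG 4 times and 1 GC box, read as CCGCCC on the plus strand. CACGTG occurred in 7.15% of 32851 RefSeq promoter windows of 300 bases and the GC box in 35.7%. The Cdkn1b stretch of 227 bases held CCAAT 2 times, a motif present in 37.4% of the windows, and 1 GC box. The Ccnd3 stretch of 81 bases held 1 GC box. Neither of the E2F motifs searched, TTTCCCGC and TTTGGCGC, occurred in any of the 7 full windows of the 5 genes, and 1.56% of all windows held one; the same was true of the κB decamer, which 0.155% held. CCGGAAG, the core of ETS factor sites, occurred once, in the full window of the internal Ccnd3 start, and in 8.86% of all windows. These matches are descriptions of the letters and not evidence of binding.

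Levels are given as CPM, counts scaled to the library size after TMM normalization, and between regions per kb of region. Over all 23 replicates the 2 Cdkn1b regions were the most open at 225 and 229 CPM per kb, followed by Cdk4 at 222. Ccnd2 region 1 was the least open at 69.2 CPM per kb. Total counts per region over all libraries were 185 to 901, and 46 of the 432 values of a region in a library were 3 counts or fewer, so the smaller regions are measured coarsely. Fewer open cells and less open chromatin per cell cannot be told apart in these bulk libraries.

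HSC were first compared with the mean of the 3 MPP subsets, averaged over recipients. None of the 18 regions differed at an adjusted p under 0.05 (edgeR quasi-likelihood test, Benjamini-Hochberg over 13325 regions; regions past it are named called), while 57 of all regions, 0.428%, were called. At an unadjusted p under 0.05 there was 1 member region, and DESeq2 and limma-voom called 0. The median log2 fold change of the members was -0.03, as it was over all regions, with 8 members higher and 10 lower in MPP. Per gene, with counts summed over its regions, 0 of 9 genes were called (1 at an unadjusted p under 0.05) against 0.108% of 9245 genes.

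Each MPP class against HSC also gave 0 member regions called in the main edgeR fit. A block on the replicate number, with 24 libraries apart, called Ccnd2 region 1 for MPP3 against HSC. Its edgeR adjusted p was then 0.0398, beside 0.0746 without the block and 0.0931 in the main fit. The classes share their HSC libraries, so the results are not separate evidence. For MPP2 0.03% of all regions were called and 0 members had an unadjusted p under 0.05; for MPP3 the values were 2.57% and 2 members, and for MPP4 1.27% and 3 members. DESeq2 and limma-voom also called 0 members in each. The members' median log2 fold changes against HSC were -0.17 in MPP2, 0.21 in MPP3 and -0.12 in MPP4, beside -0.01, -0.02 and -0.02 over all regions.

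**Figure D2:**
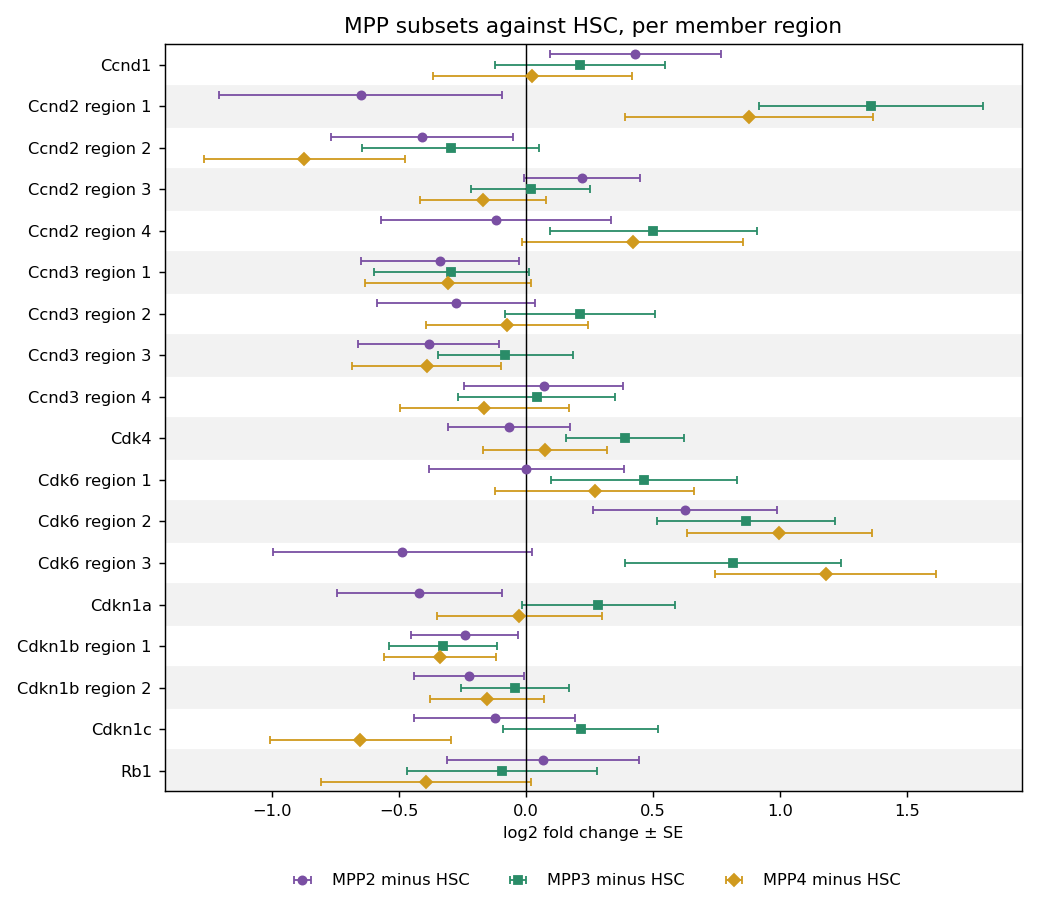
Log2 fold change with its SE of each MPP subset against HSC, averaged over recipients, for the 18 member regions. Cdk6 regions 2 and 3 and Ccnd2 region 1 lie to the right in MPP3 and MPP4 (0.81 to 1.36). Ccnd2 region 2 and Cdkn1c lie to the left in MPP4 (-0.87 and -0.65), and the other regions lie nearer to 0. No value passed the adjusted threshold in the main fit, which is the one drawn.

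With counts summed per gene, Cdk6 had the largest contrast with HSC among the 9 genes. Its 3 regions all lie in the gene body: region 1 at chr5:3344295-3344583, region 2 at chr5:3497567-3497882 and region 3 at chr5:3502670-3502871. Region 1 is centred 546 bp past the RefSeq start site, and regions 2 and 3 are centred 153832 and 158878 bp past it, in a gene of 190005 bp. The gene's summed CPM, scaled to the counts in regions assigned to genes, averaged 84.4 ± 26.2 in HSC (SD, n = 6), 94.5 ± 21.4 in MPP2 (n = 6), 138 ± 32.5 in MPP3 (n = 5) and 142 ± 26.7 in MPP4 (n = 6). The individual values overlapped between subsets, with HSC at 59.1 to 126 and MPP4 at 102 to 178. Across the 4 subsets the gene differed (joint edgeR test, adjusted p = 0.0374, with 3.03% of all genes called), and it was the only one of the 9 genes to do so. No pair of neighbours in this order passed in the main edgeR fit: MPP2 against HSC gave an adjusted p of 0.877, MPP3 against MPP2 0.106 and MPP4 against MPP3 0.999. Alternative fits that called 1 of the 9 genes for MPP3 against MPP2 are given below. Against HSC the log2 fold change was 0.67 ± 0.21 (SE) in MPP3 (adjusted p = 0.141) and 0.79 ± 0.22 in MPP4 (adjusted p = 0.112). The joint call on the gene was lost in 11 of 23 fits that each left out 1 replicate (adjusted p = 0.0134 to 0.0858) and with DESeq2 (adjusted p = 0.0535) and limma-voom (adjusted p = 0.0835).

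Cdk6 region 3 was 1 of the 2 member regions called among the 4 subsets; over all regions 7.18% were called, so 2 of 18 is near the background share. In WT recipients its CPM were 18.3, 7.82 and 0 in HSC, 14.9, 12.1 and 16.5 in MPP2, 34.1 and 19.9 in MPP3, and 34.8, 24.3 and 28.6 in MPP4. In IκB– recipients they were 41.3, 17.9 and 35.5 in HSC, 6.95, 14.7 and 10.7 in MPP2, 25.8, 28.1 and 43.3 in MPP3, and 46.2, 38.0 and 58.6 in MPP4. All MPP2 replicates, at 16.5 or below, were under all MPP3 and MPP4 replicates, at 19.9 or above, while the HSC values, 0 to 41.3, lay on both sides of that gap. The region was 3.18 times as open in MPP4 as in MPP2 (log2 fold change 1.67 ± 0.40 (SE), adjusted p = 0.0107, 3.38% of all regions called) and 2.47 times as open in MPP3 as in MPP2 (1.30 ± 0.38, adjusted p = 0.0248, 8.14% called). Of the 1085 regions called between MPP3 and MPP2, 250 were higher in MPP3 and 835 lower, and after cyclic loess scaling with limma-voom 555 were higher and 1092 lower. The joint edgeR test gave an adjusted p of 0.0136, a call that limma-voom (0.0716) and cyclic loess (0.0705) did not make. Against HSC the MPP4 value was 1.18 ± 0.43 (adjusted p = 0.196).

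The Cdk6 region 3 calls rest on few counts, 25 over 6 replicates in MPP2 and 86 over 5 in MPP3. No MPP2 replicate reached the level that the filter on low counts asks for, so the region entered the test through the other subsets. Without IκB– MPP2 replicate 1 the joint adjusted p was 0.072 and the call on MPP4 against MPP2 was lost too, as it was without IκB– MPP4 replicate 3; MPP3 against MPP2 lost its call without IκB– MPP2 replicate 1, WT MPP2 replicate 1 or 2, WT MPP3 replicate 1 or IκB– MPP3 replicate 3, with log2 fold changes of 1.11 to 1.33 in those 5 fits.

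Cdk6 region 2, the most open of the gene in CPM, had the smallest p of the members for MPP against HSC. In WT recipients its CPM were 36.7, 31.3 and 14.2 in HSC, 44.7, 75.8 and 22.0 in MPP2, 55.0 and 45.9 in MPP3, and 34.8, 66.0 and 28.6 in MPP4. In IκB– recipients they were 41.3, 35.7 and 13.3 in HSC, 34.8, 51.4 and 29.4 in MPP2, 33.5, 56.2 and 67.6 in MPP3, and 87.1, 60.8 and 46.2 in MPP4. The lowest 2 values were both in HSC, one in each recipient type, and the ranges of HSC and each MPP class overlapped. The fitted difference was 0.83 ± 0.31 (SE) on the log2 scale, 1.78-fold, with an adjusted p of 0.278, so it did not pass. Region 1, near the start site, averaged 28.4 CPM over all replicates, and its difference from HSC was 0.25 ± 0.33 (adjusted p = 0.854).

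**Figure D3:**
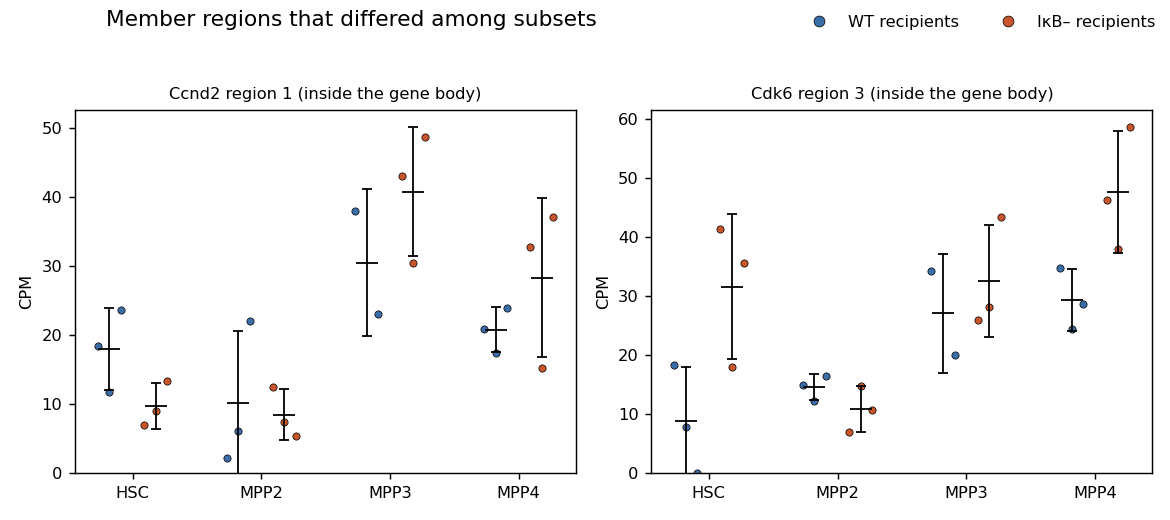
CPM per replicate (points) of Ccnd2 region 1 and Cdk6 region 3 by subset, in WT and IκB– recipients, with the group mean and SD (bars; bars below 0 are not drawn). All Cdk6 values in MPP2 are at 16.5 or below and all in MPP3 and MPP4 at 19.9 or above; in Ccnd2 all MPP3 values are above all MPP2 values.

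Ccnd2, a D-type cyclin widely used in blood progenitors, held the other called region. Region 1, at chr6:127143193-127143487, lies in the gene body 8701 bp from its nearest end. In WT recipients its CPM were 18.3, 11.7 and 23.6 in HSC, 2.13, 6.06 and 22.0 in MPP2, 37.9 and 23 in MPP3, and 20.9, 17.4 and 23.9 in MPP4. In IκB– recipients they were 6.88, 8.93 and 13.3 in HSC, 12.5, 7.34 and 5.34 in MPP2, 43.1, 30.5 and 48.7 in MPP3, and 32.6, 15.2 and 37.0 in MPP4. Each MPP3 value was above each MPP2 value, and MPP4 overlapped MPP2 through WT MPP2 replicate 3. Mean levels ran from 9.23 ± 7.11 in MPP2 (SD, n = 6) through 13.8 ± 6.20 in HSC and 24.5 ± 8.64 in MPP4 to 36.6 ± 10.2 in MPP3 (n = 5). The region was 4.03 times as open in MPP3 as in MPP2, a log2 fold change of 2.01 ± 0.41 (SE, edgeR adjusted p = 0.000947), and the joint test among subsets gave an adjusted p of 0.00345. No HSC or MPP2 value was above 23.6 CPM, and the region passed the filter on low counts through MPP3 and MPP4 replicates alone. It thus entered these tests because of the subsets in which it was high.

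Of the neighbours in this order, MPP2 minus HSC was -0.65 ± 0.56 (adjusted p = 0.779), MPP4 minus HSC 0.88 ± 0.49 (0.497), and MPP4 minus MPP3 -0.48 ± 0.37 (adjusted p = 0.999) on the log2 scale. MPP4 against MPP2 gave 1.53 ± 0.46 with an adjusted p of 0.0521, and MPP3 against HSC 1.36 ± 0.44 with 0.0931. With 24 libraries apart, MPP4 against MPP2 was called for this region (edgeR adjusted p = 0.0463, and 0.0236 with a block on the replicate number). No member region or other region was called between MPP4 and MPP3 by edgeR (0%, with 1 member at an unadjusted p under 0.05, and 0 members by DESeq2 or limma-voom). Counts were few: 16 in HSC and 19 in MPP2 over 6 replicates each, 39 in MPP4 and 111 in MPP3. In 11 replicates the region had 3 counts or fewer, 9 of them in HSC or MPP2.

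Library depth also differed between subsets, with HSC at 121599 to 255584 counts and MPP3 at 292114 to 963699. Mitochondrial counts were 13496 to 17356 in all libraries, so their share was larger in the shallow ones. The mean Spearman correlation of a replicate with the others of its group was 0.602 to 0.665 in IκB– HSC and 0.645 for WT MPP4 replicate 1. In MPP3 it was 0.832 to 0.883. When every replicate was thinned at random to 121599 counts, a step chosen after seeing the data, no member was called; the MPP3 to MPP2 differences were then 1.92 for Ccnd2 region 1 (adjusted p = 0.0705) and 1.19 for Cdk6 region 3 (adjusted p = 0.392), and the calls among subsets over all regions dropped from 957 to 226. Of 5 MPP2 markers, Slamf1, Pf4 and Itga2b had 5 regions in the table and Cd48 and Gata1 none; against MPP2, 3 of the 5 were lower and 2 higher in MPP3, with 2 of the lower ones called (8.14% of all regions), and 4 were lower and 1 higher in MPP4, with 1 called (3.38%). Their summed level was 117 to 294 CPM in MPP2, 118 to 193 in MPP3 and 83.2 to 209 in MPP4. Pf4, a megakaryocyte gene, averaged 50.1 CPM in MPP2, 20.8 in MPP3 and 18.5 in MPP4 (adjusted p = 0.0129 and 0.0263 against MPP2). The part of these markers in the Ccnd2 and Cdk6 differences was not tested.

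Within one recipient type the same 2 regions were called among subsets in IκB– recipients (adjusted p = 0.021 for Ccnd2 region 1 and 0.0271 for Cdk6 region 3, with 5.22% of all regions called). DESeq2 called both there too, and neither was called by limma-voom (adjusted p = 0.236 and 0.0589), after cyclic loess (0.146 and 0.0625) or in thinned libraries (0.0903 and 0.57). In WT recipients no member was called (0.12% of all regions; 2 members at an unadjusted p under 0.05; 0 by DESeq2 and limma-voom). The difference in subset pattern between the recipient types was tested by the interaction: its adjusted p was 0.999 for each of these regions. Of all regions 0% were called in that edgeR test, with 1 member and 539 regions at an unadjusted p under 0.05 and 0 members by DESeq2 or limma-voom.

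The other Ccnd2 regions lie around or beyond the gene end of higher coordinate: region 2 at chr6:127151743-127151982, 206 bp inside that end, region 3 at chr6:127152285-127152681, 97 bp outside it, and region 4 at chr6:127162931-127163091, 10743 bp beyond. Region 3 was the most open in CPM. In WT recipients it measured 85.6, 86.0 and 99.0 CPM in HSC, 78.8, 90.9 and 88.0 in MPP2, 89.2 and 101 in MPP3, and 41.7, 66.0 and 95.5 in MPP4. The IκB– recipients gave 62.0, 44.7 and 57.7 in HSC, 69.5, 66.0 and 102 in MPP2, 43.1, 68 and 56.8 in MPP3, and 46.2, 76.0 and 58.6 in MPP4. In HSC and in MPP3 each WT value was above each IκB– value, and in MPP2 and MPP4 the recipient types overlapped. Between MPP and HSC its log2 fold change was 0.02 ± 0.20. Region 2, next to it, gave -0.53 ± 0.31 for MPP against HSC (adjusted p = 0.565), with -0.87 ± 0.40 in MPP4 alone (adjusted p = 0.355), and region 4 gave 0.27 ± 0.37 (adjusted p = 0.858).

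No region of Ccnd1 or Ccnd3 was called among subsets. Ccnd1, at chr7:144971058-144971398, measured 24.5, 54.7 and 18.9 CPM in WT HSC, 25.6, 36.4 and 38.5 in WT MPP2, 45.5 and 36.7 in WT MPP3, and 48.7, 20.9 and 4.77 in WT MPP4. With IκB– hosts the values were 34.4, 35.7 and 22.2 in HSC, 57.0, 58.7 and 56.1 in MPP2, 38.3, 28.1 and 29.8 in MPP3, and 38.1, 53.2 and 52.4 in MPP4. The 3 IκB– MPP2 values were above all 3 WT MPP2 values, and the WT MPP4 values spanned nearly the whole range of the gene. Its MPP against HSC difference was 0.22 ± 0.30 (adjusted p = 0.854).

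Ccnd3, the cyclin best known from lymphoid and erythroid cells, had 4 regions of like level, at chr17:47507992-47508201, chr17:47511164-47511419, chr17:47521584-47521865 and chr17:47593386-47593659, which averaged 35.3 to 43.7 CPM. Region 3, the highest by a narrow margin, measured 61.1, 54.7 and 56.6 CPM in WT HSC, 34.1, 45.5 and 60.5 in WT MPP2, 55.0 and 55.1 in WT MPP3, and 20.9, 41.7 and 43.0 in WT MPP4. In IκB– recipients it measured 34.4, 53.6 and 48.8 in HSC, 40.3, 22.0 and 32 in MPP2, 35.4, 58.6 and 35.2 in MPP3, and 40.8, 30.4 and 46.2 in MPP4. In WT recipients MPP4 was below HSC and MPP3 in every replicate, and in IκB– recipients the subsets overlapped. The 4 regions had log2 fold changes of -0.31 to -0.02 between MPP and HSC, with adjusted p values from 0.715 upwards.

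Cdk4, the partner kinase of Cdk6, had 1 region, at chr10:127063280-127063697, over its start site. It measured 73.4, 82.1 and 94.3 CPM in WT HSC, 85.2, 136 and 60.5 in WT MPP2, 112 and 119 in WT MPP3, and 62.6, 101 and 119 in WT MPP4. The corresponding IκB– values were 68.8, 71.5 and 124 in HSC, 61.2, 95.4 and 77.4 in MPP2, 142, 93.7 and 103 in MPP3, and 92.5, 38.0 and 114 in MPP4. The MPP3 values were all at 93.7 or above and overlapped each other subset. The gene's difference from HSC was 0.40 in MPP3 on the log2 scale (adjusted p = 0.534) and -0.03 in MPP2 (adjusted p = 0.988).

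Among the inhibitors, Cdkn1b, whose protein restrains cyclin E and Cdk2, was the most open. Region 1, over its start site at chr6:134920174-134920699, measured 153, 156 and 142 CPM in WT HSC, 153, 124 and 132 in WT MPP2, 123 and 107 in WT MPP3, and 41.7, 150 and 85.9 in WT MPP4. Cells from IκB– recipients gave 75.7, 98.3 and 186 in HSC, 91.8, 132 and 90.8 in MPP2, 89.0, 115 and 119 in MPP3, and 103, 106 and 145 in MPP4. The WT HSC values lay within 142 to 156, while the IκB– HSC values spread over 75.7 to 186. The highest of them, also the highest value of the region, was that of replicate 3. This library also gave the highest HSC values of Cdk4, Cdkn1a and Rb1. Its chi-square over degrees of freedom was 4.124 against replicate 1 and 3.006 against replicate 2, beside 1.4 between those 2. A spread resting on this library is no recipient effect. The region had the second smallest p of the members for MPP against HSC, at -0.30 ± 0.18 on the log2 scale (edgeR adjusted p = 0.564). Region 2, at chr6:134928373-134928876 and 2848 bp beyond the gene, gave -0.14 ± 0.18 (adjusted p = 0.845).

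Cdkn1a, the inhibitor induced by p53, had 1 region in its gene body at chr17:29095366-29095683. It measured 42.8, 35.2 and 51.9 CPM in WT HSC, 23.4, 60.6 and 11 in WT MPP2, 47.4 and 41.3 in WT MPP3, and 55.6, 27.8 and 33.4 in WT MPP4. In IκB– recipients it measured 27.5, 44.7 and 66.5 in HSC, 22.2, 44.0 and 48.1 in MPP2, 64.1, 60.9 and 89.3 in MPP3, and 54.4, 60.8 and 52.4 in MPP4. All 3 IκB– MPP3 values were above the WT MPP3 values. The gene's order of means ran from 41.2 summed CPM in MPP2 to 70.1 in MPP3, and this pair gave 0.68 on the log2 scale with an adjusted p of 0.153.

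Cdkn1c, the inhibitor tied to stem cell quiescence, had 1 region over its gene end of higher coordinate, chr7:143460994-143461347. It measured 36.7, 43.0 and 51.9 CPM in WT HSC, 40.5, 39.4 and 77.0 in WT MPP2, 37.9 and 64.3 in WT MPP3, and 20.9, 38.2 and 4.77 in WT MPP4. The IκB– libraries read 48.2, 26.8 and 35.5 in HSC, 29.2, 29.4 and 26.7 in MPP2, 46.9, 39.8 and 40.6 in MPP3, and 35.4, 22.8 and 24.6 in MPP4. MPP4 held the lowest value in each recipient type, and its range overlapped that of HSC. MPP4 differed from HSC by -0.65 ± 0.36 (adjusted p = 0.481) and from MPP3 by -0.87 ± 0.31 (adjusted p = 0.999) on the log2 scale, neither past the threshold. The approximate 95% interval of the MPP against HSC difference ran from -0.73 to 0.35.

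Rb1, the pocket protein gene on which these kinases act, had 1 region over its gene end of higher coordinate, chr14:73325801-73326037. It measured 12.2, 23.4 and 42.5 CPM in WT HSC, 29.8, 39.4 and 71.5 in WT MPP2, 30.4 and 26.0 in WT MPP3, and 48.7, 13.9 and 57.3 in WT MPP4. Under IκB– recipients the region gave 13.8, 26.8 and 71.0 in HSC, 26.4, 36.7 and 26.7 in MPP2, 42.1, 23.4 and 35.2 in MPP3, and 19.0, 22.8 and 12.3 in MPP4. The HSC values alone, 12.2 to 71.0, covered nearly the whole range of the gene. The MPP against HSC value of -0.14 ± 0.33 (adjusted p = 0.924) became 0.40 when IκB– HSC replicate 3 was left out.

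**Figure D4:**
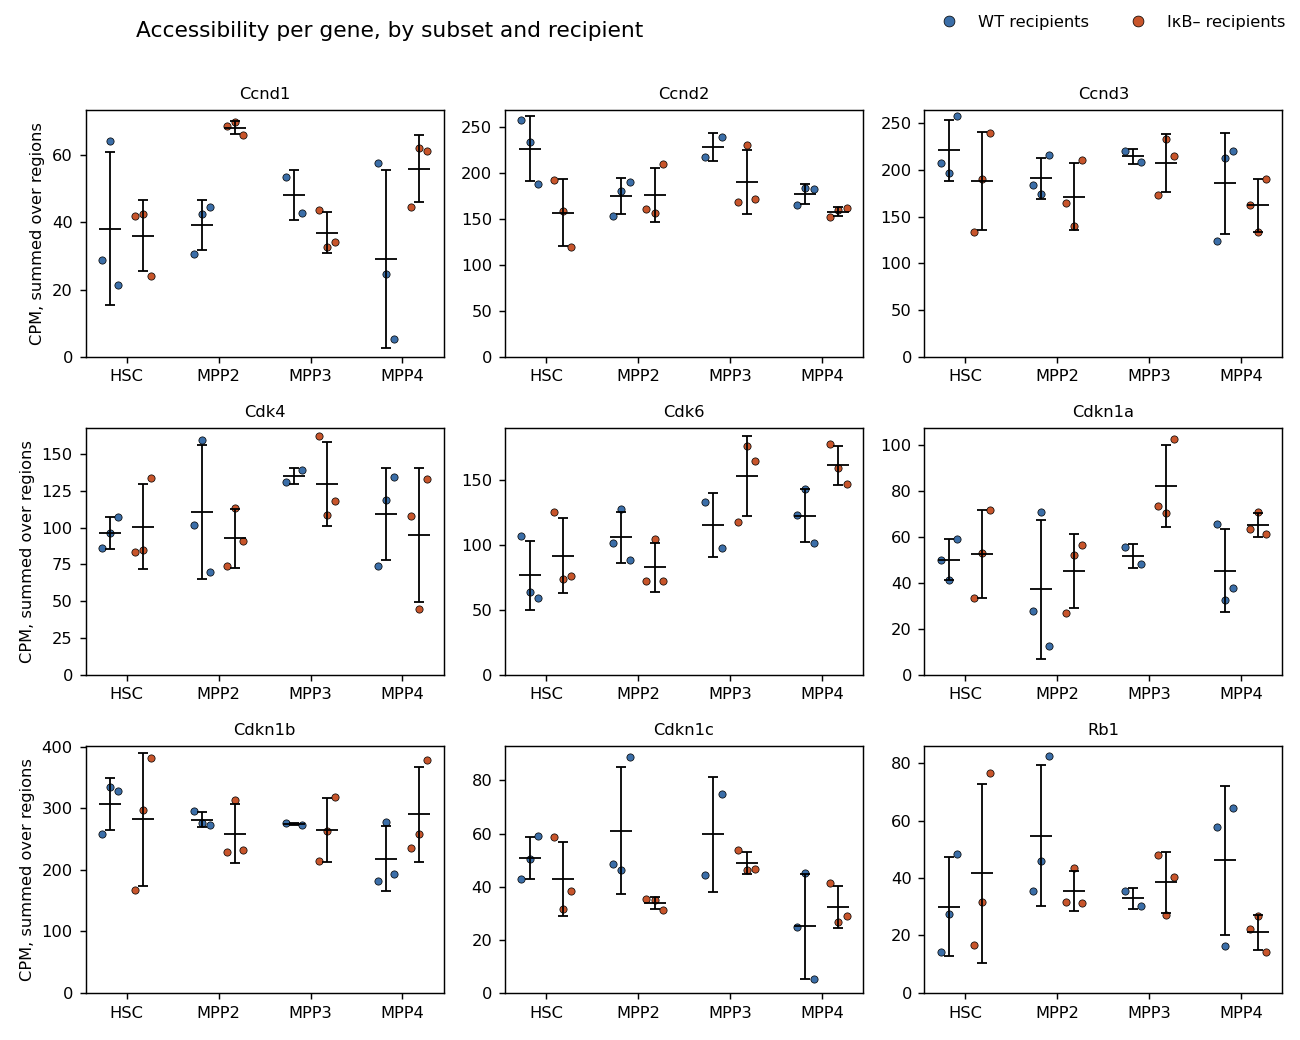
Summed CPM per gene (counts of a gene's regions scaled to all counts in gene-assigned regions) in each replicate (points) by subset and recipient, with the group mean and SD (bars). The Cdk6 mean is lowest in HSC and MPP2 and highest in MPP3 and MPP4 (84.4 to 142). Individual values overlap between subsets in Cdk6 and in the other 8 genes, and none of those 8 was called among subsets.

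The recipient comparison asked whether the host changes these regions in WT donor cells. Averaged over subsets, no member region was called by edgeR, against 1.73% of all regions, and no member gene, against 0.584% of all genes (1 member region and 1 member gene at an unadjusted p under 0.05; 0 by DESeq2 and limma-voom). The members' median log2 fold change was -0.07, beside 0.00 over all regions, with 8 higher and 10 lower in IκB– recipients. Ccnd2 region 3 had the smallest p: it averaged 83.8 ± 17.0 CPM in WT (SD, n = 11) and 62.5 ± 16.0 in IκB– recipients (n = 12), a log2 fold change of -0.47 ± 0.16 (adjusted p = 0.123). Cdk6 region 3 came next, with 19.2 ± 10.8 CPM in WT and 30.6 ± 15.9 in IκB– recipients, or 0.60 ± 0.30 (adjusted p = 0.353). Neither difference passed. Of the regions of 6 HSC markers, 1 of the 6 tested was called between recipients, that of Slamf1, lower in IκB– recipients by a log2 fold change of -1.95 ± 0.44 (edgeR adjusted p = 0.016). Of these 6, 3 were higher in IκB– recipients (median -0.02). For MPP2 markers, which include the same Slamf1 region, 0 of 5 were higher (median -0.44, 1 called). For MPP3 markers 0 of 2 were higher (-0.36, 0 called), and for MPP4 markers 5 of 6 (0.32, 0 called). The part of these markers in the member values was not tested.

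Within single subsets no member was called in the main edgeR fit. Of all regions 0.21% were called in MPP3, 0.045% in MPP4 and 0% in MPP2 or HSC. At an unadjusted p under 0.05 there were 2 members each for HSC and MPP3 and 1 each for MPP2 and MPP4, while DESeq2 and limma-voom called 0. In HSC the members were Cdk6 region 3, whose WT replicates had 5 counts in all and IκB– replicates 16 (log2 fold change 1.99 ± 0.71, adjusted p = 0.707), and Ccnd2 region 2, which averaged 73.4 CPM over 46 counts in WT and 37.7 over 16 counts in IκB– recipients (-1.08 ± 0.52, adjusted p = 0.785). In MPP3 the regions were Cdk6 region 1, higher in IκB– recipients by 1.16 ± 0.43 (adjusted p = 0.293), and Ccnd2 region 3, at -0.81 ± 0.29 (adjusted p = 0.258). With 24 libraries apart and a block on the replicate number, edgeR called Ccnd2 region 3 there (adjusted p = 0.0497, and 0.161 without the block). Ccnd1 was the member in MPP2 (0.82 ± 0.40, adjusted p = 0.999) and in MPP4 (1.06 ± 0.50, adjusted p = 0.677).

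**Figure D5:**
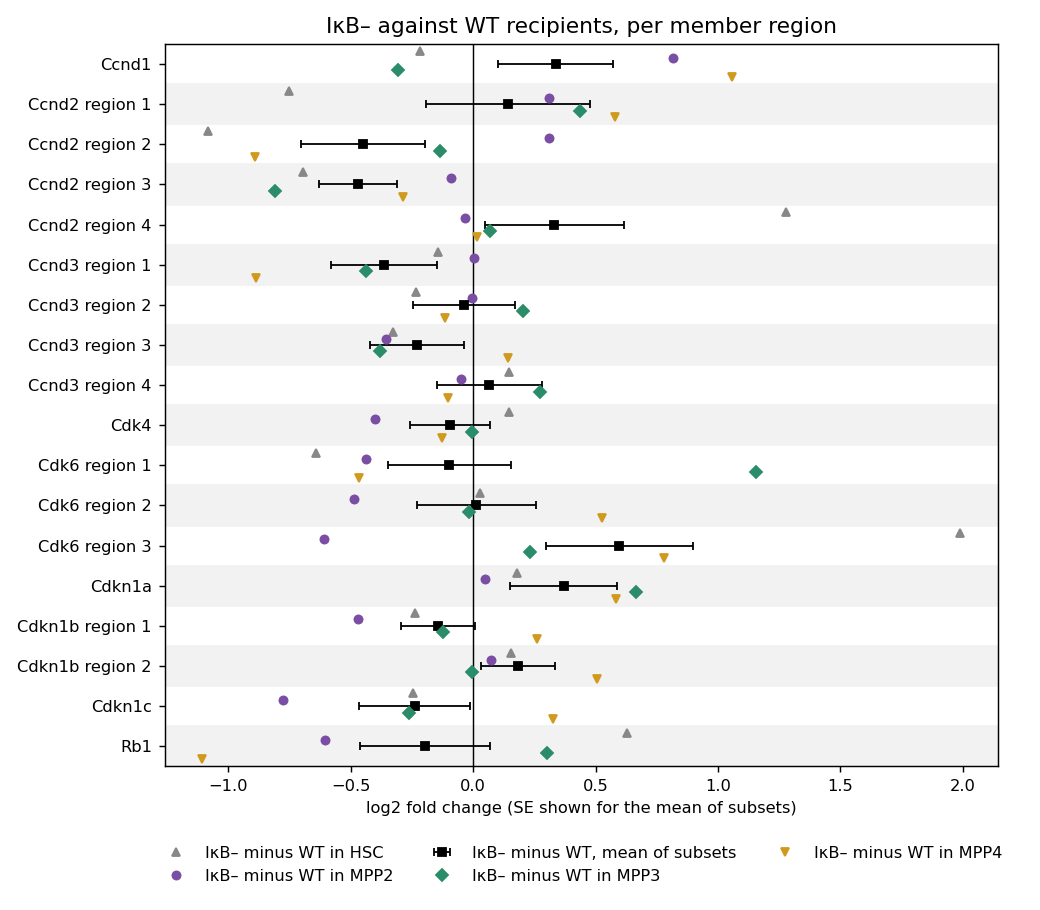
Log2 fold change of IκB– against WT recipients for the 18 member regions, as the mean over subsets with its SE (black squares) and in each subset (coloured marks, SE not drawn). The means lie between -0.47 (Ccnd2 region 3) and 0.60 (Cdk6 region 3), and in most regions the 4 subsets fall on both sides of 0.

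The other genes of the G1 to S transition were described by a list of 35, among them cyclins E, the E2F and DP factors, the Cdkn2 inhibitors, Foxo1, Foxo3 and Myc. Of these, 29 had 44 regions, 42 of which could be tested; E2f4, E2f6, Skp2, Mnat1, Foxm1 and Trp53 had none. None was called by edgeR for the mean of MPP against HSC (3 at an unadjusted p under 0.05) or between recipients (0 at an unadjusted p under 0.05). Among subsets 2 of 42 were called, 4.76%, beside 7.18% of all regions. The Ccne1 region (cyclin E, the partner of Cdk2) at a gene end averaged 117 CPM in MPP2, 142 in HSC, 177 in MPP4 and 184 in MPP3; it was higher in MPP3 than in MPP2 by 0.66 ± 0.17 on the log2 scale (adjusted p = 0.00965) and in MPP4 by 0.60 ± 0.18 (adjusted p = 0.043). The Tfdp1 region (a DP partner of E2F factors) inside the gene averaged 4.95 CPM in MPP2, 9.75 in HSC, 28.8 in MPP3 and 32.1 in MPP4, with differences from MPP2 of 2.11 ± 0.55 in MPP3 (adjusted p = 0.0108) and 2.46 ± 0.56 in MPP4 (adjusted p = 0.00752). A count of 3 equals 4.17 to 22.0 CPM in the MPP2 replicates and 11.7 to 26.8 in HSC, so its means there rest on very few counts. The calls on Ccne1 and Tfdp1 were not followed under the alternative fits.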

How the data were processed

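ATAC-seq counts of 24 libraries in 13910 regions were used. Each value is the raw read count of a region in a library, deposited by the authors as a whole number without normalization; how duplicates, the transposase offset and counting were handled is not given in the sources used here. The build mm10 and the tools Bowtie2, SAMtools, Picard, MACS2 2.1.0 and deepTools are named, without roles, per the submitters' processing notes. Regions were placed by RefSeq genes of GRCm38.p6, coordinates being those of the file.

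Counts were fitted with edgeR 4.0.16 in R 4.3.3 (TMM scaling, filterByExpr, robust quasi-likelihood F tests) with 1 mean per group for 8 groups and 23 replicates, which left 15 residual degrees of freedom. Replicates 2 and 3 of WT MPP3 were summed because their counts differed no more than sampling does (chi-square over its degrees of freedom 1.005, p = 0.348 over 13126 regions). Of the regions, 13325 passed the filter, and p-values were adjusted by Benjamini-Hochberg over all of them; a region was called at an adjusted p under 0.05. Contrasts averaged the 2 recipient types, or the 4 subsets, with equal weight. The SE of an edgeR log2 fold change was its absolute value over the square root of F, and intervals took a normal distribution. Both are approximate and need not match the p-value. Counts summed over the regions of each of 9245 genes were fitted the same way. The differences between MPP subsets and the tests within 1 recipient type were chosen after seeing the data.

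Every member gene was named. Values in every replicate were given for the region of highest mean CPM of each gene, for called regions, and for the 2 regions of smallest p in the MPP against HSC and recipient contrasts. The members and lists were chosen with earlier results of these data known. Totals of 121599 to 963699 counts limit the precision, and counting error alone is large for regions with few counts. Fits were tested on simulated data. Alternatives were other scalings, no filter, DESeq2 1.42.0, limma 3.58.1 (voom, with and without cyclic loess), regions without mitochondrial and unplaced ones, 24 libraries apart, the same with a block on the replicate number, each replicate left out, and thinned libraries.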

Additional observations from a re-analysis of the deposited data

How the results depend on the processing

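The 0 member regions called between HSC and MPP, or between recipients, stayed at 0 under other scalings, no filter, DESeq2, limma-voom, thinning and each replicate left out; the exceptions came with the replicate block on 24 libraries apart. Of 591 fold changes of member regions under alternatives, 37 had the other sign for MPP against HSC and 27 for the recipient effect, none called (smallest adjusted p 0.139 and 0.0602). Members number 16 with a limit of 5 kb and 6 within 1 kb of a gene end.

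The joint count of 2 regions among subsets became 1 with limma-voom and with cyclic loess, 0 in thinned libraries, and 1 to 2 with a replicate left out (0 to 3 in IκB– recipients, where limma-voom, cyclic loess and thinning gave 0). MPP3 against MPP2 gave 0 regions when thinned and 1 to 2 with a replicate left out; MPP4 against MPP2 gave 0 when thinned, 0 to 2 with a replicate left out, and 2 with no filter, limma-voom, cyclic loess or 24 libraries apart. Cdk6 region 3 had joint adjusted p values of 0.0716 (limma-voom), 0.0705 (cyclic loess) and 0.484 (thinned), and 0.0589, 0.0625 and 0.57 in IκB– recipients; its thinned log2 fold changes were 1.19 and 1.39 for MPP3 and MPP4 against MPP2. Ccnd2 region 1 had 0.116 when thinned, with a MPP3 to MPP2 difference of 1.92, and 0.236, 0.146 and 0.0903 in IκB– recipients. The Cdk6 gene call (1) became 0 with DESeq2 (adjusted p = 0.0535), limma-voom (0.0835), cyclic loess (0.0763) and thinning (0.752), and in IκB– recipients with 0.0567, 0.156, 0.139 and 0.766; limma-voom called 1 gene for MPP3 against MPP2. With a replicate left out, joint adjusted p ran from 0.00681 to 0.072 for Cdk6 region 3, 0.0134 to 0.0858 for the gene, and in IκB– recipients 0.0115 to 0.315, 0.0119 to 0.22, and 0.00902 to 0.0784 for Ccnd2 region 1; Cdk6 region 3 differences were 1.11 to 1.49 (MPP3) and 1.49 to 1.74 (MPP4), and gene calls 0 to 1.

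The labels do not say what a replicate number marks, so the main fits did not pair libraries by it. All 24 libraries nevertheless correlated best with their own number, a sign from the data and not the design that libraries of 1 number deviate together. Of 84 same-number pairs of libraries, 52 had correlated deviations over 0.1 (lowest -0.0507, median 0.148, against a median of -0.0553 for other numbers). The main fits leave such shared deviations in the spread. The replicate block was fitted with WT MPP3 replicates 2 and 3 kept apart, so values with those 24 libraries apart and no block are given too. With both changes, 1 member region was called for MPP3 against HSC (Ccnd2 region 1, adjusted p = 0.0398; 0.0746 without the block), 1 for the recipient effect in MPP3 (Ccnd2 region 3, 0.0497; 0.161), 2 for MPP4 against MPP2 (2 also without the block), and 1 gene each for MPP4 against HSC, MPP3 against MPP2 and MPP4 against MPP2 (0 each without it). Calls on Cdkn1a for MPP3 against MPP2 (0.0444; 0.106) and on Cdk6 region 1 among subsets in IκB– recipients (0.0301; 0.0683) were gained too. Joint calls over all regions moved from 957 to 1078 with libraries apart and 1938 with the block added.

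Over all regions the joint count was 623 to 1478 with a replicate left out, highest without IκB– HSC replicate 3, and 226 in thinned libraries. The 57 calls of MPP against HSC became 16 with limma-voom, 21 when thinned, 60 with 24 libraries apart and 223 with the block added to that; the 231 recipient calls became 147 with DESeq2, 14 when thinned, 287 with libraries apart and 481 with the block added. Low counts limit the member values: 46 of the 432 values of a region in a library were 3 counts or fewer.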
